A study of Arvicanthis niloticus with 59 samples.

Results

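The catecholamine synthesis and storage genes followed here are 10 genes chosen by symbol: Th, Ddc, Dbh, Pnmt, Slc18a1, Slc18a2, Slc6a2, Slc6a3, Chga and Chgb. All 10 were present among the 18970 genes of the deposited tables, and the list was chosen with earlier results of these data known. Levels were read in 59 RNA-seq libraries of Arvicanthis niloticus, the diurnal Nile grass rat, taken from 48 sites that the labels assign to 22 organs. Tissue came from 4 healthy animals with no treatment and no genetic change named in the labels: T3F gave 38 libraries, T173F gave 12, T426 gave 8 and T424 gave 1, the testis. The labels used here state no age for any animal. 10 sites had libraries of 2 animals, T3F gave a library for each retina, and every other site rested on 1 library of 1 animal. PolyA-selected RNA was sequenced as paired ends. Each gene has a level in TPM (a transcript level scaled for gene length and to the same sum in every library) and an expected count (the estimated number of reads assigned to it).

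Catecholamines are made from tyrosine in a chain of enzymes. Th, tyrosine hydroxylase, makes DOPA and is the rate-limiting step. Ddc, aromatic amino acid decarboxylase, turns DOPA into dopamine and also makes serotonin. Dbh, dopamine beta-hydroxylase, converts dopamine to noradrenaline inside storage vesicles, and Pnmt methylates noradrenaline to adrenaline. Slc18a1 and Slc18a2 are the vesicular monoamine transporters, Slc18a1 best known from endocrine cells and Slc18a2 from monoamine neurons. Slc6a2 and Slc6a3 are the plasma membrane transporters that take noradrenaline and dopamine back into the cell. Chga and Chgb, the chromogranins, are bulk proteins of dense-core granules in chromaffin, endocrine and nerve cells. Chromaffin cells of the adrenal medulla run the whole chain, dopamine neurons of the ventral midbrain and hypothalamus stop at dopamine, noradrenaline neurons of the pons and medulla stop at noradrenaline, and the retina holds a sparse class of dopamine amacrine cells.

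Libraries held between 678819 and 41309569 expected counts. The T3F libraries had a median of 18420427 counts and the T426 libraries ranged from 1691561 to 3827321, so a gene at 0 in a T426 library carries a wider limit. Some libraries held markers that go against their labels. The library labelled liver of T3F had a summed level of 27109 TPM for the alveolar genes Sftpc and Sftpb, and the library labelled lung of T3F had 88614 TPM for the hepatocyte genes Alb, Ahsg and Fga. The same 3 genes summed to 12764 TPM in the renal pelvis of T426 and 4773 TPM in cornea. The retina of T426 held the sperm gene Prm2 at 5373 TPM, listed at 0 in both retinas of T3F, and the hippocampus and femur of T426 held it at 1955 and 687 TPM. The pancreas of T173F, with 1573234 counts, held the islet genes at a summed 55.3 TPM, against 23298 TPM in the pancreas of T3F. It was counted among the libraries in doubt. These libraries are named by their labels throughout. The 10 genes also differ in how many reads stand behind 1 TPM: relative to the median gene this was 4.39 for Th and 3.67 for Dbh, but 0.269 for Chgb and 0.112 for Pnmt, so a low Pnmt level rests on few reads. Levels are compared between genes in TPM, and fold changes are within a gene.

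The whole chain was found together in few places. At 1 TPM or more, Th was present in 10 of 59 libraries, Dbh in 7, Slc6a2 in 7, Slc6a3 in 5 and Slc18a1 in 14. Ddc, Slc18a2, Pnmt, Chgb and Chga reached that level far more widely, in 50, 51, 43, 45 and 31 libraries. Th, Ddc, Dbh and Pnmt reached 1 TPM together in 4 libraries: the 2 adrenal libraries, the library labelled Kidney.Artery, and the medulla oblongata. The pons joined these when Pnmt was left out, which made 5. Th, Ddc, Slc18a2 and Slc6a3, the dopamine neuron set, reached 1 TPM together in 1 library, thalamus and hypothalamus. In contrast, 40 libraries had Ddc at 1 TPM or more with Th below it, and 37 had Pnmt with Dbh below it. In bulk tissue, fewer cells of a type and less RNA per cell cannot be told apart, and this holds for each level below.

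**Figure D1:**
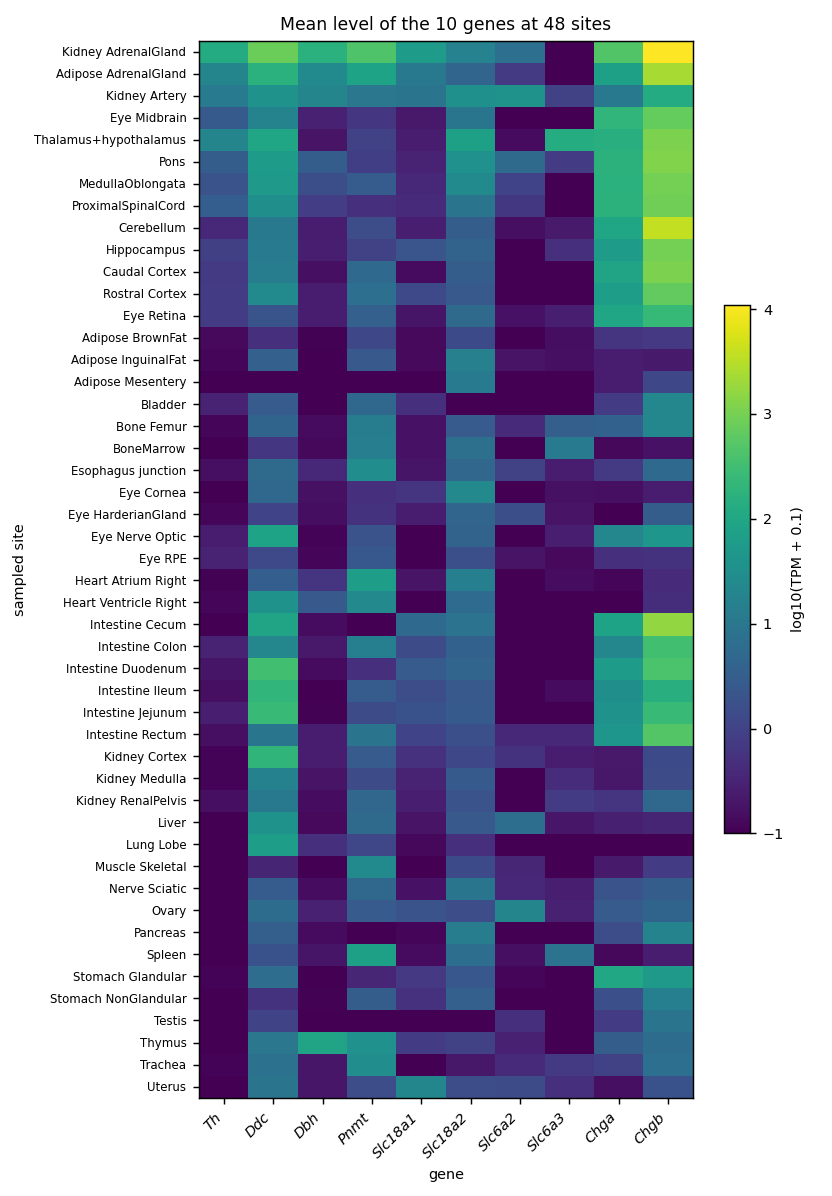
Mean level of the 10 genes at the 48 sites on a colour scale of log10(TPM + 0.1), with genes as columns and sites as rows, adrenal, artery, brain and retina first. The kidney-labelled adrenal row has the highest level of 7 genes, Slc6a3 is brightest in thalamus and hypothalamus, and Ddc, Pnmt, Slc18a2, Chga and Chgb extend over many other rows.

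The 2 libraries with an adrenal name both came from animal T173F, and the labels place 1 under kidney and 1 under adipose. Both held adrenal tissue by its markers: the 8 adrenal cortex genes were high in each, with the steroidogenic enzyme Cyp21a1 at 22271 TPM in the kidney-labelled and 4909 TPM in the adipose-labelled library. The library under kidney had little tubule signal: 5 of 7 tubule genes, Umod, Slc12a1, Slc34a1, Lrp2 and Kap, were at 0, and the 7 summed to 15.6 TPM. The library under adipose also held fat cell genes, with Adipoq at 14348 TPM against 48.2 TPM in the other.

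Synthesis enzymes were higher in the kidney-labelled than in the adipose-labelled adrenal library. Th stood at 126.5 and 19.7 TPM. Ddc stood at 818 and 162 TPM. These ranked 1 and 6 among the 48 site levels of Ddc. Dbh stood at 166 and 24.3 TPM. Pnmt stood at 455 and 83.5 TPM, the top 2 of its 48 site levels, as were those of Th. The 95% counting interval of Th in the adipose-labelled library, 18.3 to 21.1 TPM, overlapped that of thalamus and hypothalamus, 18.6 to 20.5 TPM, so the order of these 2 sites is within counting error.

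Transporters split into a high and a low pair. Slc18a1 stood at 57.0 TPM in the kidney-labelled and 10.9 TPM in the adipose-labelled library, ranks 1 and 3 of its site levels. Slc18a2 was lower, at 16.9 and 4.27 TPM, and 5 sites exceeded the kidney-labelled value. Slc6a2, the noradrenaline transporter, was at 6.78 and 0.605 TPM, the latter from 7 counts. Slc6a3, the dopamine transporter, was at 0 in both, where 3 counts would be 0.383 and 0.497 TPM. Of the granule proteins Chga was at 462 and 72.8 TPM, below Ddc, and Chgb was the most abundant member in both libraries, at 10962 and 2383 TPM.

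The ratio between the 2 libraries was similar across the members. For the 8 members with at least 10 counts in each, the kidney-labelled level was a median of 5.33 times the adipose-labelled level, from 3.96 for Slc18a2 to 6.82 for Dbh. The adrenal cortex genes had a median ratio of 3.89, from 1.38 to 5.07. Genes of fat cells had a median ratio of 0.00461, and the 8057 genes at 10 TPM or more in both had 1.23. These ratios come from 2 libraries and carry no test.

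**Figure D2:**
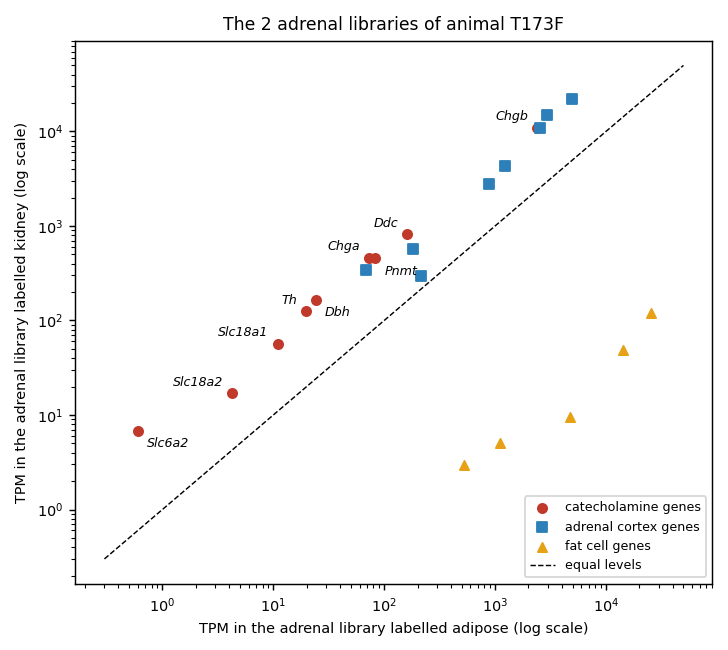
TPM in the kidney-labelled (vertical) against the adipose-labelled (horizontal) adrenal library of T173F, both on log scales, for 9 catecholamine genes (Slc6a3 was at 0 in both), adrenal cortex genes and fat cell genes; the dashed line marks equal levels. Catecholamine genes lie above the line at ratios of 3.96 to 11.2, cortex genes at 1.38 to 5.07, and fat cell genes far below it.

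Against the mean of the other 46 sites, 7 of the 10 genes were higher in the adrenal pair and 0 were lower, by edgeR's quasi-likelihood test with Benjamini-Hochberg adjustment over 18323 genes, an adjusted p under 0.05 and a log2 fold change of at least 1. Of those 18323 genes, 3.12% were higher and 0.147% lower. A site with 1 library was assumed to vary like the sites with 2 animals. Th was higher by 10.05 ± 0.43 (log2 fold change ± SE, adjusted p = 2.38e-07 by edgeR) and Dbh by 9.44 ± 0.43 (adjusted p = 3.00e-08). The contrast averages sites on the log scale, and Th and Dbh were at 0 in 21 and 14 of 59 libraries. For these genes DESeq2 gave 9.63 and 9.15, and limma on log2(TPM + 1) gave 5.23 and 5.56. Mean Th was 73.1 TPM in the pair and 1.01 TPM over the other sites. The adrenal mean was 3.74 times the highest other site for Th. For Dbh it was 1.07 times that site, thymus. Ddc, which is made in many tissues, was higher by 4.84 ± 0.72 (edgeR adjusted p = 8.12e-04). Pnmt was higher by 5.90 ± 0.48 and Slc18a1 by 6.74 ± 0.66 (edgeR adjusted p = 4.58e-06 and 2.28e-05). Chga was higher by 5.87 ± 0.70 and Chgb by 7.89 ± 0.63 (edgeR adjusted p = 1.04e-04 and 1.53e-06). Slc18a2 differed by 0.96 ± 0.75 (edgeR adjusted p = 1) and Slc6a2 by 5.03 ± 1.32 (edgeR adjusted p = 0.0799), and neither passed. DESeq2 also called Slc6a2, at 10.9 (adjusted p = 0.0440), which made 8 members, and limma on log2(TPM + 0.1) lost Ddc, at 5.37 (adjusted p = 0.0509). Slc6a3, at 0 in both libraries, had an edgeR standard error over 20 and was given no test.

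Both adrenal libraries came from 1 animal, and with the animal added as a block Dbh alone passed, at 8.81 ± 1.15 (edgeR adjusted p = 0.0124). Neither adrenal site had a second animal. The term for T173F rested on renal pelvis, ovary and pancreas, the sites it shared with another animal, and its pancreas library was in doubt. In the fit with the block Th was 8.87 ± 2.79 higher (edgeR adjusted p = 0.290), Ddc 6.83 ± 1.55 (0.0770) and Pnmt 5.40 ± 1.28 (0.0983). Slc18a1, Chga and Chgb were then at 4.79, 5.35 and 7.45 with edgeR adjusted p = 0.471, 0.449 and 0.185. The count of genes higher in the adrenal pair fell from 572 to 105 over all genes with the block. Left out in turn, the 2 adrenal libraries moved Th between 8.80 and 11.3, Dbh between 8.16 and 10.7 and Chgb between 6.89 and 8.89, and each still passed by edgeR. Without the kidney-labelled library Ddc lost its call, at 3.77 (edgeR adjusted p = 0.0895). Without the adipose-labelled library Slc6a2 gained one, at 6.68 (edgeR adjusted p = 0.0168), and it did so too without either ovary library, at 5.28 and 5.01 (0.0231 and 0.0285).

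Among the related genes, granule cargo and processing genes were the list with most adrenal calls: 4 of 14 were higher and 0 lower. Scg2, another granin, stood at 1689 and 316 TPM and was 5.48 ± 0.62 higher (edgeR adjusted p = 9.54e-05). Npy, a peptide released with noradrenaline, was 3.96 ± 0.68 higher (edgeR adjusted p = 0.00423), and Vgf and Scg3 also rose. Of the 17 transcription factors of catecholamine cells, Hand2 rose by 4.55 ± 1.07 (edgeR adjusted p = 0.0297) and Tfap2b by 3.52 ± 0.73 (0.0224), while 8 had no test. Phox2a, a sympathetic lineage factor, was at 94.3 TPM in the kidney-labelled library and 12.3 TPM in the other. None of the 5 dopamine receptors had a test, so none could be called. Of the 6 tetrahydrobiopterin cofactor genes, 10 measured breakdown genes and 9 adrenergic receptors, 1, 2 and 3 had no test. None of the rest was called by edgeR. Gch1, the first enzyme of cofactor synthesis, stood at 71.8 and 12.05 TPM. The median difference on the log2(TPM + 1) scale was 4.82 over the 10 members, 0.95 over the granule genes, 0.61 over the cofactor genes and 0.13 over all genes tested.

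In the brain, the dopamine set was highest in the library labelled thalamus and hypothalamus, not in the library labelled midbrain. Th was at 19.5 TPM in thalamus and hypothalamus and at 2.62 TPM in midbrain. The other 8 brain and spinal cord libraries held Th between 0.265 TPM in cerebellum and 3.14 TPM in spinal cord. Slc6a3, the marker transporter of dopamine neurons, stood at 134 TPM in thalamus and hypothalamus from 1656 counts, and at 0 in midbrain, where 3 counts would be 0.290 TPM. Its next brain level was 0.681 TPM in pons. Slc18a2 was at 72.7 TPM in thalamus and hypothalamus and at 9.19 TPM in midbrain, and Ddc at 97.3 and 18.0 TPM. All of these brain libraries came from T3F except a second hippocampus of T426, so no spread between animals stands behind these levels; the counting intervals of Th, 18.6 to 20.5 and 2.26 to 3.02 TPM, do not overlap.

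Of the 6 other listed genes of dopamine neurons, 4 were lower in the midbrain library than in thalamus and hypothalamus. Foxa2 was at 0 there and at 5.66 TPM in thalamus and hypothalamus. Pitx3 was at 0.445 and 5.33 TPM, Lmx1b at 0.454 and 5.06 TPM, and Nr4a2 at 0.345 and 5.003 TPM. En1, which marks midbrain and anterior hindbrain more broadly, was highest of all libraries in midbrain, at 159 TPM against 42.8 TPM. En2 was at 75.0 TPM in midbrain and 18.0 TPM in thalamus and hypothalamus, and highest in cerebellum, at 219 TPM. Aldh1a1 of the same list was at 76.4 and 69.2 TPM, and the whole list, led by En1, summed to 237 TPM in midbrain and 133 TPM in thalamus and hypothalamus. The labels place the midbrain library under eye. Tph2, the serotonin synthesis enzyme of the brain, was at 80.1 TPM in thalamus and hypothalamus and 7.71 TPM in midbrain; its part in the Ddc and Slc18a2 levels was not tested.

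Midbrain was compared with the mean of the other 8 brain and spinal cord sites, and edgeR called 0 of the 10 members, with 0.0218% of 18323 genes higher and 0% lower. At an unadjusted p under 0.05 the count of members was 0 as well, and 283 of all genes passed. DESeq2 and limma also called 0 members, and over all genes DESeq2 called 24 higher and 13 lower. Th differed by 0.80 ± 1.03 and Slc18a2 by 0.02 ± 1.08 (log2 fold change ± SE, edgeR adjusted p = 1 for both), with errors that do not exclude a change of 2-fold or more. The mean TPM of Th ran the other way, at 2.62 in midbrain and 3.74 over the 8 sites. Chga was at 207 TPM in midbrain, the highest of the brain libraries, and differed by 0.91 ± 1.59 (edgeR adjusted p = 1). Ddc differed by -0.62 ± 1.84, Dbh by -0.60 ± 1.28 and Pnmt by -1.49 ± 1.62. For Slc18a1 the difference was -1.18 ± 2.10 and for Chgb -0.71 ± 1.83 (edgeR adjusted p = 1 for these 5). Slc6a2 and Slc6a3, at 0 in midbrain, had no test. No gene of the cofactor, breakdown, granule, transcription factor or receptor lists was called by edgeR in this comparison. Of these, 1 breakdown gene and 5 transcription factors had no test.

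The noradrenaline genes peaked in the hindbrain. Dbh was at 3.02 TPM in pons, 1.54 TPM in medulla oblongata and 0.707 TPM in spinal cord. In the 7 other brain libraries it lay between 0 and 0.334 TPM, so these 3 sites stood above the rest without overlap. Slc6a2 was at 5.34 TPM in pons, 0.953 TPM in medulla and 0.547 TPM in spinal cord. It reached 0.0639 TPM in cerebellum and 0.0396 TPM in thalamus and hypothalamus, and was at 0 in the remaining 5. Th was at 3.01 and 1.87 TPM in pons and medulla. Ddc was at 59.7 and 50.1 TPM, and Slc18a2 at 36.0 and 25.2 TPM, both second only to thalamus and hypothalamus in the brain for the pons value. Pnmt, the adrenaline enzyme, was at 0.743 TPM in pons from 2 counts and at 2.81 TPM in medulla from 7 counts, below the 6.93 and 5.13 TPM of the rostral and caudal cortex.

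Pons and medulla were set against 4 forebrain sites, the rostral and caudal cortex, hippocampus, and thalamus with hypothalamus. edgeR called 0 of the 10 members, with 0.00546% of 18323 genes higher and 0.00546% lower; 3 members passed an unadjusted p under 0.05, each higher in the hindbrain. These were Dbh, higher by 4.31 ± 0.92 (edgeR adjusted p = 0.245), Slc6a2 by 7.96 ± 2.58 (edgeR adjusted p = 1) and Slc18a2 by 2.15 ± 0.89 (edgeR adjusted p = 1). DESeq2 called Dbh, at 4.33 (adjusted p = 0.00197), and Slc6a2, at 17.7 (adjusted p = 0.0200), a size that depends on forebrain counts near 0. limma on log2(TPM + 1) called Dbh, at 1.53 ± 0.29 (adjusted p = 0.0355). Th, at 0.62 ± 0.87, and Ddc, at 1.18 ± 1.33, did not pass (edgeR adjusted p = 1 for both). The contrast averages sites on the log scale; the mean TPM of Th was 2.44 in pons and medulla and 5.41 in the forebrain sites, the other direction, with thalamus and hypothalamus among the latter. Neither did Pnmt at -0.73 ± 1.08, Slc18a1 at -0.53 ± 1.64, Chga at 1.01 ± 1.34 or Chgb at 0.23 ± 1.37 (edgeR adjusted p = 1 for each), and Slc6a3 had no test. The granins were at similar levels in pons and medulla, Chga at 171 and 163 TPM and Chgb at 1208 and 987 TPM.

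Marker genes moved with these hindbrain levels. Phox2a, a factor of noradrenaline and other hindbrain neurons, was at 5.26 TPM in pons and 4.29 TPM in medulla. The 4 serotonin neuron genes summed to 410 TPM in pons and 290 TPM in medulla, the highest of the 59 libraries, with Tph2 at 331 and 206 TPM. Serotonin neurons also use Ddc and Slc18a2, and the part of these cells in the 2 levels was not tested. None of the related lists gave an edgeR call in this comparison, where 1 breakdown gene and 2 transcription factors had no test.

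**Figure D3:**
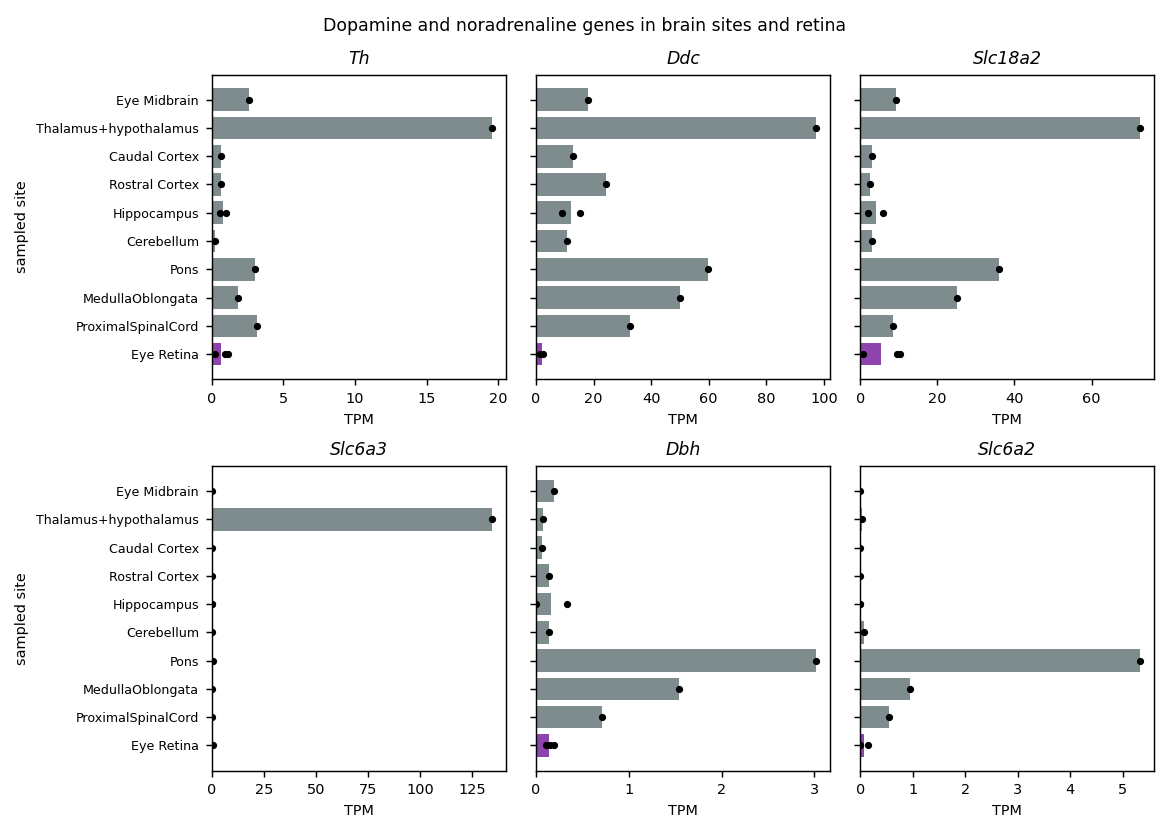
TPM of 6 genes (panels) at the 9 brain and spinal cord sites and the retina; bars are means over animals and points are single libraries. Th, Ddc, Slc18a2 and Slc6a3 have their longest bar in thalamus and hypothalamus, 134 TPM for Slc6a3, and Dbh and Slc6a2 in pons, 3.02 and 5.34 TPM.

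In retina Ddc was low. Th and Slc18a2 of T3F lay within their brain ranges, 0.265 to 19.5 TPM and 2.12 to 72.7 TPM. Th was at 1.17 TPM in the left and 0.960 TPM in the right retina of T3F and at 0.261 TPM in T426. Ddc was at 1.69, 1.29 and 2.39 TPM in the same libraries. The lowest Ddc level of the 10 brain and spinal cord libraries was 8.99 TPM, so the groups did not overlap. Slc18a2 was at 10.4, 9.65 and 0.714 TPM. Slc6a3 was at 0.641 TPM in the left retina and at 0 in the other 2 libraries. Chga was at 127, 128 and 65.4 TPM and Chgb at 276, 279 and 194 TPM, below every brain level of Chgb. The left and right retina of T3F lay close together for Th, Ddc, Slc18a2, Chga and Chgb, and T426, which held sperm genes and 2472766 counts, was lower for Th, Slc18a2, Chga and Chgb.

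Against the 9 brain and spinal cord sites edgeR called 0 members in retina, while 6.69% of 18323 genes were higher and 0.709% lower; 0 members passed an unadjusted p under 0.05. Ddc was lower, at -3.77 ± 1.77 (log2 fold change ± SE, edgeR adjusted p = 0.251). DESeq2 called 1 member, Ddc, lower at -3.56 (adjusted p = 0.0142). edgeR did so as well when the 8 libraries in doubt, the T426 retina among them, were left out, at -4.38 (adjusted p = 0.0135). limma called 0. Th differed by -1.29 ± 0.91 (edgeR adjusted p = 0.522), Slc18a2 by -0.84 ± 0.92 (0.729) and Chgb by -2.17 ± 1.498 (0.499). For Chga the difference was -0.29 ± 1.30 (edgeR adjusted p = 0.985), for Dbh -0.98 ± 0.998 (0.705) and for Slc18a1 -0.9999 ± 1.51 (0.831). Pnmt, at 4.19, 2.66 and 3.42 TPM in the retinas, differed by 1.23 ± 0.91 (edgeR adjusted p = 0.542). Slc6a2 and Slc6a3, near 0 in retina, differed by -0.91 ± 5.50 and 1.20 ± 0.80 (edgeR adjusted p = 1 and 0.487), and the sign of both turned under another tool.

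Some dopamine receptors and transcription factors were called higher in retina, as were 6.69% of all genes tested, while the members gave no call. Neither list was tested against that share. 2 of 5 dopamine receptors rose in retina by edgeR: Drd4, the receptor of photoreceptor cells, by 9.70 ± 0.83 (adjusted p = 8.19e-05) and Drd1 by 3.59 ± 0.68 (adjusted p = 0.00765). Drd4 was at 74.2, 73.8 and 24.4 TPM in the retinas and at 0.0641 TPM in midbrain. Tfap2b, an amacrine cell factor, rose by 4.52 ± 0.85 and Pitx3 by 4.13 ± 1.12 (edgeR adjusted p = 0.0117 and 0.0477), 2 of the 17 transcription factors. Pitx3 was uneven, at 7.10 TPM in the left retina of T3F, 0.399 TPM in the right and 2.83 TPM in T426. The cofactor, breakdown, granule and adrenergic receptor lists gave 0 edgeR calls in retina, and 2 breakdown genes had no test. The median difference on the log2(TPM + 1) scale was -0.56 over the members and -0.10 over all genes.

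Optic nerve differed from retina in Ddc. The optic nerve library of T3F held 82.1 TPM from 780 counts, against 1.29 to 2.39 TPM in retina, and Th stood there at 0.138 TPM. The dopamine receptor gene Drd4, high in retina, was at 8.78 TPM in the nerve library, and the part of retinal RNA in the nerve values was not tested. This rests on 1 library.

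Outside the nervous system and the adrenal labels, the gut libraries held Ddc and the granins together. Across the 8 libraries of 7 gut sites Ddc ran from 6.18 TPM in glandular stomach through a median of 147 TPM to 390 TPM in the duodenum of T426. Duodenum of T3F was at 270 TPM, jejunum at 265 TPM and ileum at 205 TPM, while cecum was at 89.5, colon at 21.9 and rectum at 8.96 TPM. Small intestine thus stood above large intestine and stomach. Chga ran from 21.5 to 99.5 TPM with a median of 41.9 TPM, and Chgb from 53.7 to 1688 TPM with a median of 292 TPM. Their extremes lay at different sites: glandular stomach had the highest gut Chga and the lowest gut Chgb, and cecum the highest Chgb. Slc18a1 ran from 0.593 to 5.24 TPM. Th was at most 0.199 TPM and Dbh at most 0.137 TPM in these 8 libraries, so the endocrine granule genes were present there with next to no Th or Dbh.

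Against 23 sites of other organs, edgeR called 4 members higher in the gut and 0 lower, where 10.7% of 18323 genes were higher and 1.93% lower. Ddc was higher by 3.48 ± 0.64 (log2 fold change ± SE, edgeR adjusted p = 0.00158), Slc18a1 by 4.09 ± 0.71 (0.00119), Chga by 7.45 ± 0.71 (5.27e-06) and Chgb by 7.45 ± 0.69 (4.22e-06). With the animal as a block the same 4 passed, by edgeR at 3.66, 4.13, 7.49 and 7.46. Slc18a2 differed by 0.67 ± 0.57 (edgeR adjusted p = 0.702). Th, Dbh, Pnmt, Slc6a2 and Slc6a3 had an edgeR standard error over 20 and were given no test. For these DESeq2 called Dbh, Pnmt and Slc6a2 lower, at -2.43, -1.85 and -6.91 (adjusted p = 0.00353, 0.0114 and 0.0135), and Th higher, at 1.95 (adjusted p = 0.0291). For Th the mean level ran the other way, 0.0846 TPM in the gut and 0.542 TPM in the other sites, both near 0, and limma gave -0.07 (adjusted p = 0.851). limma called 3 members higher, leaving out Slc18a1 at 0.92 on the log2(TPM + 1) scale, and 0 lower.

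Genes of the related lists were higher in the gut as well. Of the 14 granule genes 11 were higher by edgeR, led by Scg2 at 7.17 ± 0.64 (adjusted p = 4.65e-06), Pcsk1 at 6.26 ± 0.83 (1.30e-04), Pcsk2 at 6.01 ± 0.71 (4.96e-05) and Gal at 6.00 ± 0.71 (1.09e-04). Pcsk1 and Pcsk2 are the proteases that cut prohormones. Of the 10 measured breakdown genes 7 were higher, among them Maoa, monoamine oxidase A, at 3.44 ± 0.48 (edgeR adjusted p = 1.38e-04) and Aldh1a1, an aldehyde dehydrogenase, at 3.596 ± 0.43 (4.18e-05). Of the 17 transcription factors 5 were higher, including Foxa1 at 7.57 ± 0.61 (edgeR adjusted p = 2.34e-05) and Insm1, a factor of endocrine cells, at 5.35 ± 0.71 (1.90e-04). Pcbd1 of the cofactor list and Adra2a of the adrenergic receptors were each the 1 call of their lists. None of the 5 dopamine receptors had a test. Tph1, the serotonin enzyme of gut endocrine cells, was 7.86 ± 0.96 higher (edgeR adjusted p = 9.30e-05), and enterocyte Slc5a1 8.87 ± 0.67 (7.37e-07); the part of either cell type in the Ddc level was not tested.

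**Figure D4:**
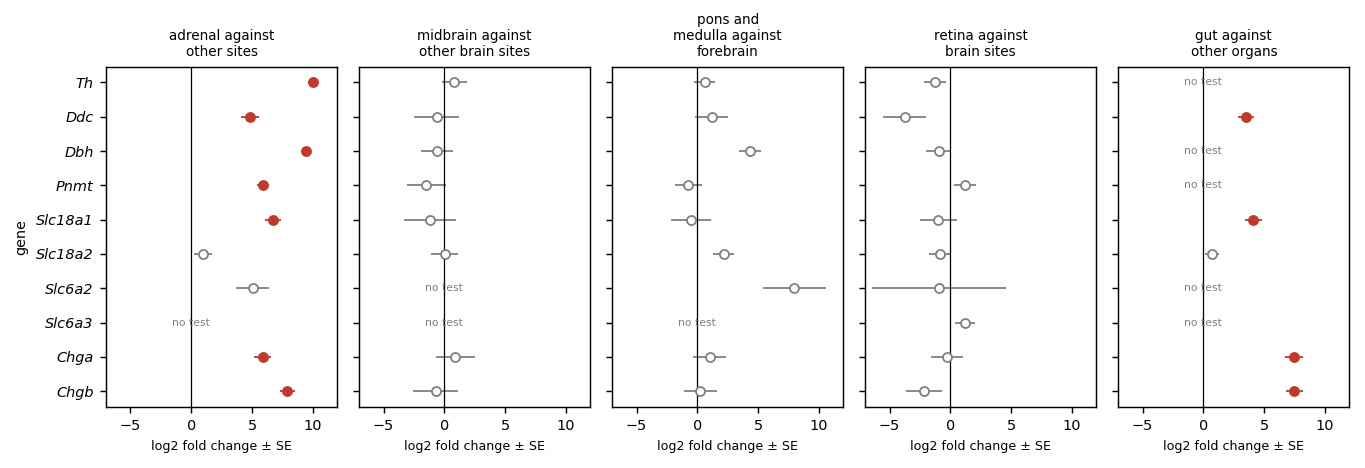
Log2 fold change ± SE of the 10 genes (rows) in the 5 comparisons between sites (panels), from edgeR. Filled points passed the threshold, open points did not, and "no test" marks a gene with a standard error over 20. Filled points stand in the adrenal panel, 7 genes, and in the gut panel, 4 genes.

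Ddc was also high in kidney cortex, a site where it makes renal dopamine from circulating DOPA. The kidney cortex library held 195 TPM from 2191 counts, kidney medulla 16.4 TPM, and the renal pelvis 0.661 TPM in T173F and 21.0 TPM in T426. The hepatocyte genes summed to 2.84 TPM in the T173F and 12764 TPM in the T426 renal pelvis, and the part of liver RNA in its Ddc level was not tested. Th in kidney cortex was 0.00974 TPM from 1 count. Proximal tubule genes stood with it, with Slc34a1 at 2247 TPM and Slc5a2 at 272 TPM in cortex. Right ventricle had 38.4 TPM of Ddc. The liver of T426 had 76.6 TPM and the library labelled lung of T3F, which held hepatocyte genes, 63.1 TPM, while the library labelled liver of T3F had 2.30 TPM.

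The library labelled Kidney.Artery of T3F carried a noradrenaline pattern outside brain and adrenal. Th was at 12.1 TPM from 902 counts, the highest outside brain and adrenal labels. Dbh was at 19.6 TPM, Slc18a2 at 33.5 TPM and Slc6a2 at 37.3 TPM. Slc18a1 was at 8.43 TPM, Pnmt at 9.95 TPM, Chga at 11.02 TPM and Chgb at 125 TPM. Sympathetic neuron genes stood beside them: Phox2a was at 12.1, Hand2 at 25.1 and Prph, a neuronal intermediate filament, at 143 TPM. Of the adrenal cortex genes Cyp11b1 was at 0.116, Star at 1.58 and Cyp21a1 at 3.55 TPM, while Mc2r, which fat cells also express, was at 16.6 TPM beside the fat cell gene Adipoq at 4346 TPM.

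Proportions between members separated this library from adrenal. Slc6a2 was 1.90 times Dbh in the artery library but 0.0409 and 0.0249 times Dbh in the kidney-labelled and adipose-labelled adrenal libraries. Pnmt was 0.509 times Dbh in the artery library and 2.74 and 3.44 times Dbh in adrenal. Slc18a1 was 0.252 times Slc18a2 in the artery library and 3.37 and 2.56 times in adrenal. In pons Slc6a2 was 1.77 times Dbh, and in medulla 0.618 times. Over all libraries where both transporters had at least 3 counts, Slc18a1 exceeded Slc18a2 in 6 of 36. Chgb exceeded Chga in 42 of 43 libraries, the exception being glandular stomach, where Chga was 1.85 times Chgb. These ratios are of TPM, describe single libraries and carry no test. Their size depends on the gene lengths behind TPM: relative to the median gene, the reads behind 1 TPM were 0.269 for Chgb and 1.36 for Chga. The annotation that set these lengths was not given in the sources used here.

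Several members were high at a site where other members were low. Dbh stood at 88.6 TPM in thymus of T173F, with 2830 counts, second to the kidney-labelled adrenal library. Th was at 0 in thymus, where 3 counts would be 0.0755 TPM, and Slc18a2 was at 0.864 TPM from 4 counts, while Ddc was at 9.89 TPM and Pnmt at 35.3 TPM. Genes near Dbh in the RefSeq annotation of this species were lower there, with Fam163b at 13.7 TPM and Sardh at 1.78 TPM. Aire, the factor with which thymic epithelium expresses genes of other tissues, had its highest level in the same library, at 124 TPM. The part of Aire or of the neighbouring genes in the Dbh level was not tested, and that level rests on 1 thymus library. Right ventricle of T173F was the other library with Dbh of 1 TPM or more and Th below it, at 2.49 TPM.

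Pnmt was spread over muscle and blood-forming tissue. It stood at 72.8 TPM in spleen, 62.7 TPM in right atrium, 35.3 TPM in thymus, 29.1 TPM at the esophageal junction and 29.0 TPM in trachea. Skeletal muscle had 22.4 TPM in T3F and 26.2 TPM in T426, the latter from 8 counts, and right ventricle 23.8 TPM. Dbh in these libraries was below 1 TPM except in thymus and ventricle. A neighbouring gene, Stard3, was high at several of these sites. It stood at 2643 and 5359 TPM in skeletal muscle, 1956 TPM in atrium and 3169 TPM in ventricle. Esophageal junction had 2977 TPM of it, trachea 1621 TPM and femur of T3F 901 TPM. Its level was 38.1 TPM in spleen, 48.4 TPM in thymus and 24.5 TPM in the kidney-labelled adrenal library. Tcap, a sarcomere gene that lies next to Pnmt in that annotation, was at most 8.42 TPM in any library. The assignment of reads among these neighbours, and whether counting used strand, were not given in the sources used here. Their part in the Pnmt level of any site was not tested.

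Slc6a3 outside the brain was highest in blood-forming tissue. It was at 12.4 TPM in bone marrow from 381 counts, 8.22 TPM in spleen from 134 counts and 6.35 TPM in femur of T3F. Femur of T426 had 0.283 TPM from 2 counts. Th was at 0 in marrow and spleen. Slc6a2 differed between animals at the same site: the ovary of T173F held 38.6 TPM from 599 counts and the ovary of T3F 0, where 3 counts would be 0.115 TPM. The library labelled liver of T3F, which held alveolar genes, had 13.3 TPM of Slc6a2, and the liver of T426 had 0. Slc18a1 had a peak in uterus, at 20.2 TPM from 501 counts, 14.1 times Slc18a2 there.

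Slc18a2 was present at many sites without Th. Cornea held 23.8 TPM, pancreas 17.3 TPM in T3F and 10.1 TPM in T173F, inguinal fat 15.4 TPM, right atrium 15.1 TPM, mesenteric fat 12.4 TPM, and sciatic nerve 10.2 TPM in T3F and 7.38 TPM in T426. Mast cells, which store histamine through this transporter, had their 5 marker genes at a summed 3761 TPM in inguinal fat, the highest of the 59 libraries. The sum was 1544 and 1180 TPM in the sciatic nerves. It was 254 TPM in mesenteric fat and 199 TPM in cornea, above the median of 48.8 TPM over the 59 libraries. Right atrium, at 4.81 TPM, and pancreas of T3F, at 2.32 TPM, lay below that median. In the library labelled lung the sum was 651 TPM, where Slc18a2 was at 0.404 TPM. The part of mast cells in the Slc18a2 levels was not tested.

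**Figure D5:**
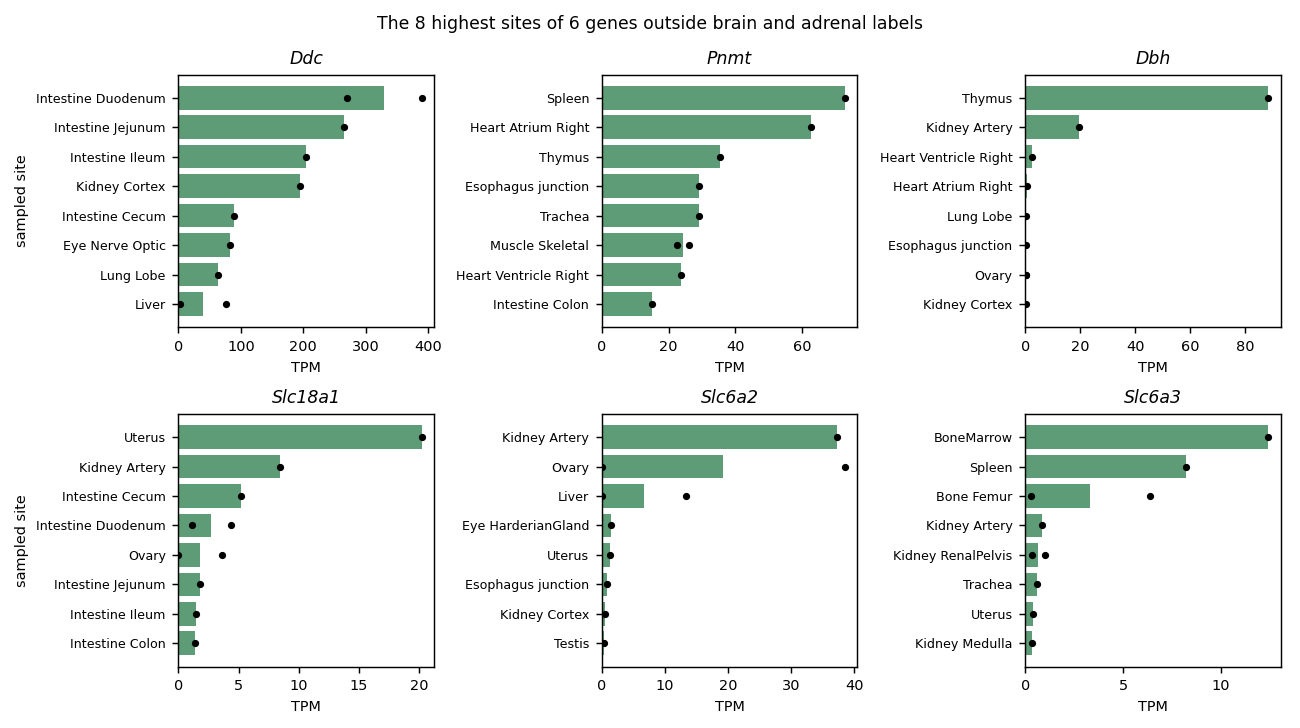
TPM of 6 genes (panels) at the 8 highest sites of each outside brain and the adrenal labels; bars are means over animals and points are single libraries. Dbh peaks in thymus at 88.6 TPM, Pnmt in spleen at 72.8 TPM, Slc18a1 in uterus at 20.2 TPM and Slc6a3 in bone marrow at 12.4 TPM, while the 2 ovary points of Slc6a2 lie at 0 and 38.6 TPM.

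Sites with libraries of 2 animals allowed a test with a spread behind every site. Among these 10 sites, 7 of 10 members differed by edgeR's F test (adjusted p under 0.05 and a range of fitted levels of at least 1 on the log2 scale), where 41.4% of 17564 genes differed. Chgb was at 987 ± 122 TPM in hippocampus (mean ± SD, n = 2 animals), 410 ± 286 in duodenum, 235 ± 59.3 in retina and at most 21.8 ± 29.2 elsewhere (edgeR adjusted p = 0.00452). Chga was at 96.6 ± 44.1 TPM in retina, 61.9 ± 6.21 in hippocampus and 61.8 ± 31.7 in duodenum (edgeR adjusted p = 0.0131), 3 sites whose spreads overlap. Ddc was at 330 ± 84.8 TPM in duodenum and 39.5 ± 52.5 in liver, where the label of 1 library is in doubt (edgeR adjusted p = 0.00958).

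Slc18a2 gave the smallest adjusted p of the members in these 10 sites, 8.68e-04 by edgeR. It was at 13.7 ± 5.12 TPM in pancreas and 8.80 ± 2.005 in sciatic nerve, against 1.27 ± 0.131 in skeletal muscle and 1.45 ± 0.343 in ovary (mean ± SD, n = 2 animals). The pancreas library of T173F was among those in doubt. limma on log2(TPM + 1) did not call Slc18a2, with adjusted p = 0.196. Pnmt was highest in skeletal muscle, at 24.3 ± 2.65 TPM, and was at 0 in both pancreas libraries (edgeR adjusted p = 0.0140). Without the T3F muscle library Pnmt lost its call (edgeR adjusted p = 0.0559). Th was at 0.802 ± 0.325 TPM in hippocampus and 0.662 ± 0.567 in retina, and at 0 in all libraries of liver, skeletal muscle, sciatic nerve and ovary (edgeR adjusted p = 0.0255). That call was lost under DESeq2 (adjusted p = 0.274) and limma (0.217), and by edgeR without either hippocampus library or the T3F sciatic nerve (0.0620, 0.0700 and 0.0516).

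Slc6a3 passed narrowly, with edgeR adjusted p = 0.0483, and led in femur at 3.32 ± 4.29 TPM, an SD above the mean. In 15 of 22 fits that left out a library it no longer passed, with edgeR adjusted p from 0.0581 to 0.0962. The call was also lost under DESeq2 (adjusted p = 0.503), limma with either pseudocount (0.334 and 0.171), and edgeR with no filter (0.0618) or with the retina sides separate (0.0704). Slc6a2 was at 19.3 ± 27.3 TPM in ovary (edgeR adjusted p = 0.0933) and passed with the animal as a block (0.0493) and without the second ovary library (0.0384). Dbh and Slc18a1 did not differ at the threshold, with edgeR adjusted p = 0.747 and 0.0952. Without either ovary library Slc18a1 passed, at 0.0223 and 0.0337.

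Likeness over the 48 sites was measured by Pearson correlation of log2(TPM + 1) site means, among 18297 genes that reached 10 TPM at some site, and is a description only. Chga and Chgb were most like each other, at 0.955, followed for both by Scg2 (0.915 and 0.925) and Resp18 (0.900 and 0.879), all granule or endocrine genes. Th and Dbh shared Il23r, the interleukin 23 receptor subunit, as nearest gene, at 0.7999 and 0.811, and it also led for Slc18a1 at 0.703. Il23r stood at 71.5 TPM in the kidney-labelled and 11.3 TPM in the adipose-labelled adrenal library and at 2.14 TPM in thymus. After Il23r came Aire at 0.788 and the cortex gene Cyp21a1 at 0.714 for Dbh. For Th they were Olfr465-ps1 at 0.763 and Ascl4 at 0.757, both with their highest level in the kidney-labelled adrenal library.

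For the other members the nearest genes peaked at varied sites, not always that of the member. Slc6a3 was nearest to Parpbp at 0.793, Bsx at 0.790 and Gm8773 at 0.669, each highest in thalamus and hypothalamus. Slc18a2 was nearest to Arhgap36 at 0.581, the hypothalamic factor Otp at 0.559 and Pcdh20 at 0.556. Ddc was nearest to Nat8f5 at 0.675, highest in kidney cortex, and then to Stard4 at 0.669 and Rwdd2b at 0.647, highest in ileum and duodenum. For Slc18a1, Hspe1 at 0.681 and Sstr5 at 0.670 followed Il23r. Slc6a2 was nearest to Chrna2 at 0.676, highest in ovary, H1foo at 0.585 and Il13ra2 at 0.583. Pnmt was nearest to Nr4a1 at 0.699, Rcsd1 at 0.674 and Themis2 at 0.657. All of these values share the same libraries, and for genes with 1 dominant site the correlation rests mostly on that site.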

How the data were processed

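The authors deposited 2 tables for all 59 libraries, levels in TPM and expected counts per gene. Reads were processed with Bowtie 0.12.8 and RSEM, per the submitters' processing notes. Genome build, annotation and strand setting: not given in the sources used here. Of the deposited expected counts, 54.8% were whole numbers; all were rounded. Each label was taken as a site, the 2 retina sides of T3F were summed, and edgeR (4.0.16, R 4.3.3) fitted 58 libraries with TMM scaling, its filter on low counts, 1 term per site and 10 residual degrees of freedom. Sites with 1 library borrow the spread of sites with 2, and the p-values measure that spread. Contrasts with a standard error over 20, worked out from the fold change and its F statistic, were given no test, 9 of 50 for the members. A call needed a Benjamini-Hochberg adjusted p under 0.05 over all genes and a log2 change of at least 1. DESeq2 (1.42.0) and limma (3.58.1) on log2(TPM + 1) or log2(TPM + 0.1) served as alternatives, with DESeq2 size factors, no filter, the animal as a block, libraries in doubt left out, and each of 23 libraries left out in turn. On simulated counts for the adrenal comparison over 18085 genes, 46.3% of 4-fold, 95.5% of 16-fold and 100% of 64-fold changes were recovered. For the retina comparison these shares were 31.3%, 95.5% and 100%. For the 10 sites with 2 animals, over 17623 genes, they were 2.99%, 85.1% and 100%. Calls outside the changed genes numbered 7, 22 and 2. The other comparisons were not simulated. Before the changes were added, the simulation gave a gene the same expected share of counts at every site, with 1 spread for all genes and no animal effect. Only genes with a mean of at least 10 counts were changed. The shares therefore do not measure recovery for members at or near 0 at many sites. Intervals are exact 95% Poisson limits, and limits at 0 are 3 counts; both cover counting error only. The named genes are all 10 members, of each pathway list up to 4 called genes with the largest change per comparison, cell type markers with their TPM, and the 3 genes most alike per member; Gch1 and the genes near Pnmt and Dbh were chosen after their values were seen. The members and lists were chosen with earlier results of these data known. Some genes that this rule names are not reported here.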

Additional observations from a re-analysis of the deposited data

How the results depend on the processing

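In the adrenal comparison 7 members were higher, 1 with the animal as a replicate block, and 6 to 8 when a library was left out. For pons and medulla DESeq2 called 2 members and limma on log2(TPM + 1) called 1, where edgeR called 0. In retina DESeq2 called 1 member lower, as did edgeR without the 8 libraries in doubt. In the gut DESeq2 called 3 members lower, and leaving out a library gave 4 higher each time. Among the 10 sites with 2 animals limma on log2(TPM + 1) called 4 in place of 7, and leaving out a library gave 5 to 9. Ranking by Spearman correlation kept 9 of the 30 most alike genes. The cause of these changes was not tested.

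Some values under the threshold changed sign. In midbrain Slc18a2 was at 0.02, at -0.037 with the block, -0.053 without the 8 libraries and -0.074 by limma on log2(TPM + 1), and from -0.04 to 0.16 with a library left out; Dbh there ranged from -0.69 to 0.24. Pnmt in pons and medulla ranged from -0.88 to 0.35. In retina Slc6a2 was at -0.91 by edgeR and 6.63 by DESeq2, and Slc6a3 at 1.20 by edgeR and -0.74 and -0.84 by limma.

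Counts over all genes moved more. Adrenal higher went from 572 to 105 with the block, 1088 and 1175 without 3 and 8 libraries, and 349 and 171 by limma; lower went from 27 to 8, 200, 186, 102 and 57 in the same order, and to 1338 by DESeq2 and 42 with retina sides apart. Midbrain ranged from 0 to 24 higher and 0 to 13 lower, pons and medulla from 0 to 71 and 1 to 85. Retina went from 1226 higher to 543, 1976, 700, 380 and 201 in that order. Retina lower went from 130 to 1070 by DESeq2, 827 without 3 libraries, 422 with sides apart and 487 by limma on log2(TPM + 1). Gut lower went from 354 to 1793 by DESeq2 and 630 and 665 without 3 and 8 libraries. Leaving out 1 library gave 461 to 866 genes higher and 2 to 106 lower in adrenal, 342 to 1589 and 10 to 422 in retina, 245 to 590 lower in the gut, and 5667 to 12521 in the joint comparison. The lowest retina counts came without the T426 retina and the fewest genes lower in adrenal without the adipose-labelled library. The highest counts of adrenal lower, retina lower and gut lower came without the T173F pancreas, and those of adrenal higher and the joint comparison without the T3F pancreas. Leaving out the T3F pancreas or either liver library also moved adrenal lower and retina lower up by over 1.5 times, and leaving out the T3F muscle (adrenal lower) or the T3F hippocampus (retina lower) moved them down by as much. Midbrain then had 0 to 9 and pons and medulla 0 to 5 genes higher. The joint comparison went from 7271 to 10943 by DESeq2 and 12559 and 12479 by limma, and was not run without the 8 libraries, since those sites then lose an animal.

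The same animals supplied many sites. Over 21 pairs of the 7 sites with T3F and T426, the correlation of their animal differences ranged from -0.042 to 0.819 with a median of 0.146. The block changed the adrenal calls and that of Slc6a2 in the joint comparison, and no other member call. Depth limits Pnmt most, since its levels rest on few reads.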
